A study of Mus musculus with 4 samples.

Results

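The response of the wild-type (WT) mouse ventricle to isoproterenol was read from 2 messenger RNA libraries, 1 from mice given isoproterenol and 1 from mice given saline. All genes with a mean of at least 1 CPM (a gene's read count scaled to a fixed library total of 1e+06 reads) over the 4 libraries of the series were taken. These are 13041 of the 46603 genes listed, 24267 of which had at least 1 read, and 12369 of the 13041 (94.8%) are annotated as protein coding. The WT mice, of C57Bl6/J background and 8 to 12 weeks old, had received saline or 50 mg/kg/day of isoproterenol into the peritoneum once a day for 7 days before the ventricles were taken. Mice without the P2Y6 receptor (P2Y6-null, here KO), matched for background and age, were treated in the same 2 ways, and their libraries are given beside the WT values. The labels do not say whether a library came from 1 heart or a pool, nor how the null allele was made. Each of the 4 groups held 1 library, so no test between the WT groups was possible.

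Isoproterenol is a synthetic agonist of beta-adrenergic receptors. In the cardiac myocyte these receptors act through a stimulatory G protein and adenylyl cyclase to raise cyclic AMP (cAMP), and protein kinase A then phosphorylates calcium-handling proteins, which speeds and strengthens the beat. The same kinase phosphorylates CREB, a transcription factor that binds cAMP response elements near immediate early genes such as Fos and Nr4a1. In fat cells the same receptors drive lipolysis and, in brown fat, heat production. Repeated dosing over days is widely used in mice to produce cardiac hypertrophy and fibrosis, and sustained stimulation is known to desensitize the receptors.

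The libraries held 18771198 to 25637369 reads in the listed genes, and transcripts of the mitochondrial genome took 24.9% of the reads in WT saline and 28.9% in WT isoproterenol. P2ry6, which encodes the receptor missing in KO mice, stood at 5.11 and 5.89 CPM in the WT libraries and at 0.566 and 0.533 CPM in the KO libraries. Xist was at or below 0.195 CPM and the Y-linked gene Ddx3y between 72.8 and 85.7 CPM in all 4 libraries, so no library had the female pattern of these genes. The myocyte myosin chain Myh6 stood at 30569 and 27006 CPM in the WT pair. Of the 8 markers of thymus, lymph node and lung, 0 reached 1 CPM, and the atrial light chains Myl4 and Myl7 stood at 68.7 and 56.6 CPM in WT isoproterenol, against 88.1 and 77.0 CPM in WT saline. Of 7 atrial markers with a mean of at least 1 CPM, 1 was higher in WT isoproterenol. This was Bmp10, at 1.37 CPM in WT saline and 3.57 CPM in WT isoproterenol, and at 0.0435 and 7.94 CPM in the KO pair.

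Ratios of the treated to the saline library were taken on reads recovered from the CPM and scaled by TMM (trimmed mean of M-values). They are given as folds with a 95% counting interval in parentheses. To be counted, a gene needed both ends of its interval to be past 1.5-fold on the same side. The interval covers counting error in those 2 libraries and says nothing of the spread between hearts. Of the 13041 genes, 119 were higher in the treated WT library (0.913%) and 99 lower (0.759%), 1.67% in all. The ratio of 12198 genes (93.5%) lay within 1.5-fold, and the central 95% of log2 ratios ran from -0.61 to 0.70. Among the genes counted as higher 75 were past 2-fold and 20 past 4-fold, and among those counted as lower 61 and 8. With scaling by total counts, which lowers every log2 ratio by 0.08, 96 genes were higher and 126 lower, so that the share higher was 43.2% in place of 54.6%. Since tissue was sequenced in bulk, fewer cells of a type and less RNA per cell cannot be told apart in any value below.

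**Figure D1:**
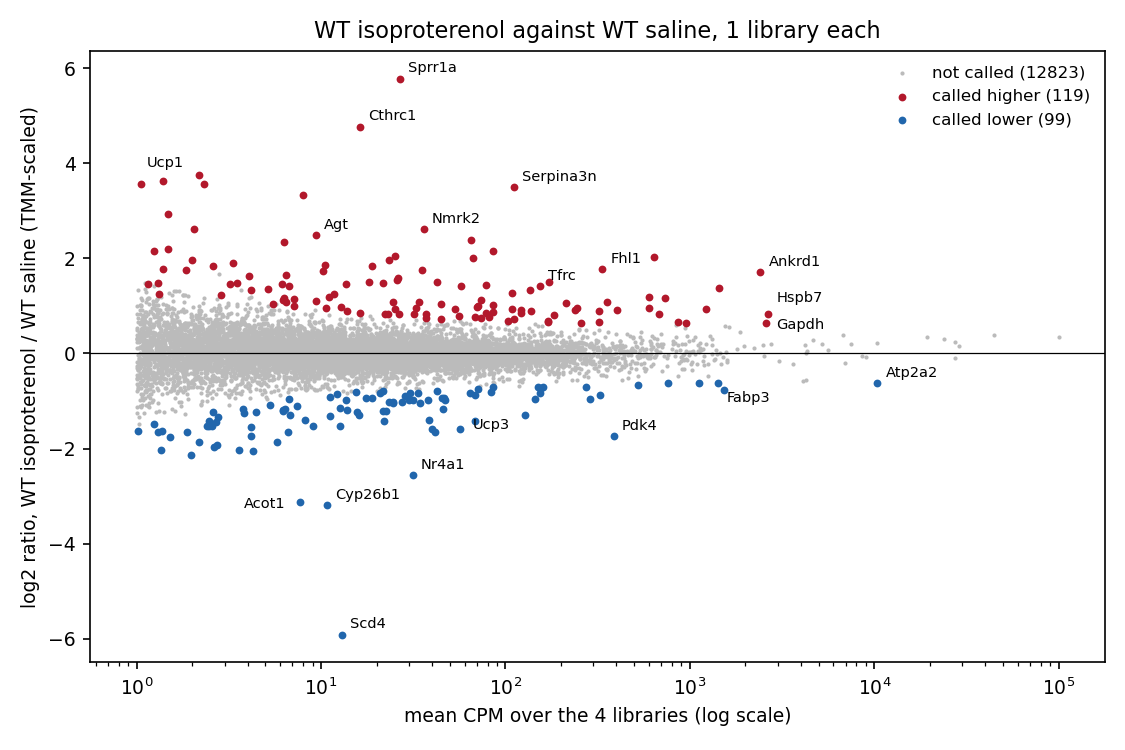
Each dot is 1 of the 13041 genes, with its mean CPM over the 4 libraries on a log axis and its TMM-scaled log2 ratio of WT isoproterenol to WT saline. Red dots are the 119 genes counted as higher and blue dots the 99 counted as lower, and most genes lie within 1.5-fold of no change at every level.

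The width of the interval depended on depth. Between 1 and 10 CPM the median interval reached 1.37-fold to either side of the ratio, and 1.57% of 4595 genes were counted. Between 10 and 100 CPM it reached 1.12-fold, and 1.32% of 7178 genes were counted. Of 78 genes at 1000 CPM or more, where the interval reached 1.02-fold, 11.5% were counted. The genes just above the limit of 1 CPM were Palb2 and RP24-372J15.4 (ratios 1.44-fold and 1.09-fold higher), and those just below it were Mas1, a receptor for angiotensin peptides, at 0.999 CPM and Hamp, the iron hormone hepcidin, at 0.998 CPM.

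For the genes of the receptor pathway itself, no interval lay wholly beyond the limit in WT. Of 33 tested genes of beta-adrenergic and cAMP signalling 0 were counted in either direction, beside 1.67% of all genes. In this list 14 had a ratio above 1, and the median log2 ratio was -0.03, beside a median of 0.00 over all genes. Adrb1, the main beta receptor of the myocyte, stood at 21.1 CPM in WT saline and 12.3 CPM in WT isoproterenol, and at 18.5 and 14.4 CPM in the KO pair. It was 1.63-fold lower (1.4 to 1.9) in WT, and the lower bound of the interval fell short of 1.5-fold. Adra1a, an alpha receptor for noradrenaline, had the lowest ratio of the list at 12.3 against 6.95 CPM (1.67-fold lower, 1.37 to 2.06). In KO it stood at 13.9 and 3.3 CPM and was counted as lower (4.75-fold, 3.63 to 6.38). Of the whole list 2 genes were counted as higher and 3 as lower in KO. Adrb3, the beta receptor of fat, was under the limit of 1 CPM in every library. Gnas, the stimulatory G protein subunit, was 1.38-fold lower (1.09 to 1.76) at 7.92 and 5.41 CPM, and the cyclases Adcy5 and Adcy6 stood at 100 and 97.3 CPM and at 227 and 253 CPM. Phosphodiesterases, which break down cAMP, ranged from Pde4b (37.8 against 24.8 CPM, 1.44-fold lower) to Pde7a (31.9 against 39.1 CPM, 1.29-fold higher). The receptor kinases Adrbk1 and Grk5, which silence stimulated receptors, were 1.11-fold lower and 1.09-fold higher.

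Immediate early genes, which are switched on within minutes by cAMP and many other signals, had the lowest median of all the lists tested. Of 24 tested genes 9 were lower and 0 higher in the treated WT library, with a median log2 ratio of -0.43. Nr4a1 (ENSMUSG00000023034), an orphan nuclear receptor, stood at 60.3 CPM in WT saline and 9.7 CPM in WT isoproterenol, and at 41.4 and 14.1 CPM in the KO pair. Both treated libraries lay below both saline libraries, and the ratio was 5.87-fold lower (5.07 to 6.85) in WT and 3.33-fold lower (2.91 to 3.84) in KO. Fos, a subunit of the AP-1 factor, stood at 6.05 and 1.35 CPM in WT and at 6.44 and 3.25 CPM in KO, 4.17-fold lower (2.82 to 6.58) in WT. Dusp1, a phosphatase that switches off MAP kinases, stood at 65.9 and 31.8 CPM in WT and at 57.8 and 31.5 CPM in KO. Its ratios of 1.96-fold (1.79 to 2.15) and 2.08-fold lower (1.88 to 2.29) lay within each other's intervals. Btg2, an antiproliferative gene, and Klf2, a transcription factor of endothelium, were also lower in both genotypes, by 1.96-fold and 2.06-fold in WT and by 1.66-fold and 1.72-fold in KO.

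Other members of the list were lower in WT but not counted in KO. Egr1 stood at 24.6 and 11.5 CPM in WT (2.01-fold lower, 1.73 to 2.35) but at 28.4 and 28.8 CPM in KO. Atf3, a stress-responsive repressor, stood at 6.86 and 2.85 CPM in WT and at 6.4 and 8.79 CPM in KO, and Nr4a3 at 8.66 and 3.52 CPM in WT and at 6.71 and 6.02 CPM in KO. For Egr1, Atf3 and Nr4a3 the WT isoproterenol library was thus the lowest of the 4, and the difference between genotypes was not tested. Fosl2, a relative of Fos, was 1.77-fold lower (1.58 to 1.99) in WT and 1.57-fold lower (1.42 to 1.74) in KO. Of the 24 tested genes 5 were counted as lower in KO and 1 as higher. The latter was Egr2, at 1.26 and 6.39 CPM in KO and at 1.13 and 1.25 CPM in WT. The remaining 15 tested genes were not counted in WT, among them Jun at 53.7 and 43.7 CPM, Ier3 at 22.7 and 22.3 CPM and Myc at 2.3 and 2.08 CPM.

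Outside the list, 4 further genes that were lower are given, chosen after their values were seen. Sik1, a kinase that is induced by cAMP and restrains CREB coactivators, stood at 71.0 CPM in WT saline, 21.4 CPM in WT isoproterenol, 48.7 CPM in KO saline and 25.6 CPM in KO isoproterenol. It was 3.14-fold lower (2.83 to 3.49) in WT and 2.15-fold lower (1.94 to 2.4) in KO, with both treated libraries below both saline libraries. Irs2, an adaptor of the insulin receptor, stood at 15.1 and 4.92 CPM in WT and at 12.5 and 3.89 CPM in KO, 2.88-fold lower (2.32 to 3.64) in WT. Slc7a1, an arginine transporter, was 2.25-fold lower (2.05 to 2.47) at 67.5 against 28.4 CPM, and Apold1, an early gene of endothelium, 2.48-fold lower (2.03 to 3.06) at 15.8 against 6.03 CPM.

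The cAMP response element was looked for in the 250 bases before the start of these genes, from RefSeq (GRCm38.p6). The full element TGACGTCA and its half-site, TGACG or CGTCA on the printed strand, were searched, and a full element holds both half-sites. The sequences of 5 of the genes that were lower are shown because they carry a half-site or a full element, in capitals with the rest in lower case, 5′ to 3′ in the direction of the gene. Positions count back from the start, the base before it being -1. Nr4a1 lies at chr15:101266596-101266845 (plus strand) with half-sites at -233, -213, -69 and -40, and Nr4a3 at chr4:48045055-48045304 (plus strand) with half-sites at -231, -213, -205 and -147. Fos lies at chr12:85473640-85473889 (plus strand) with half-sites at -129 and -66. Btg2, at chr1:134079156-134079405 (minus strand), has a full element at -166, and Dusp1, at chr17:26508473-26508722 (minus strand), has one at -143 and a further half-site at -191.
Nr4a1: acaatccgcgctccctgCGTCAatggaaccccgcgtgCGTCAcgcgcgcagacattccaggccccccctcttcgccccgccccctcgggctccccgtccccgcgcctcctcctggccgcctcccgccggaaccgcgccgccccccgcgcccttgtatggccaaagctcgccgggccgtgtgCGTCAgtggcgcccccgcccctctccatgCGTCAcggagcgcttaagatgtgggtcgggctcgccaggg
Nr4a3: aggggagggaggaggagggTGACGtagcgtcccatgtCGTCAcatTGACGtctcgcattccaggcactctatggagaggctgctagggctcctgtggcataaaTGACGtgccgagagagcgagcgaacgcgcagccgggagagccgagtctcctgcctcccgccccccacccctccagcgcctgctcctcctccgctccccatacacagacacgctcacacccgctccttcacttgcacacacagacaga
Fos: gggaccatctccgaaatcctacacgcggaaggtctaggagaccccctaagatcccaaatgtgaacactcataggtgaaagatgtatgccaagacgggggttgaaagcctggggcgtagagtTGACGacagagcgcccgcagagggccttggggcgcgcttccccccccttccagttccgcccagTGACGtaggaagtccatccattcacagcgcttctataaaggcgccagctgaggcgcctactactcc
Btg2: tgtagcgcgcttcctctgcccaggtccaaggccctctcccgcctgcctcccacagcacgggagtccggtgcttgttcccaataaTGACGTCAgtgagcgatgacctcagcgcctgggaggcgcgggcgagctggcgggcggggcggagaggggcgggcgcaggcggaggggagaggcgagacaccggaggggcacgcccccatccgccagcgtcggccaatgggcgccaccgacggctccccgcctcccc
Dusp1: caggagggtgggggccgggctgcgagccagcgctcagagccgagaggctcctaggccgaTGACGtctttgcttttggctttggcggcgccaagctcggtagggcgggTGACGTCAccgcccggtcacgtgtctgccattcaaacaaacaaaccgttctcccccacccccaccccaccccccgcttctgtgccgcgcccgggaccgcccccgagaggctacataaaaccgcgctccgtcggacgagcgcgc
Of the 25 genes on the list 19 had a sequence in the RefSeq table, and 12 of these (63.2%) held a half-site and 2 (10.5%) a full element. Of the 9 that were lower 8 had a sequence, all but Egr1, and 7 (87.5%) held a half-site, Atf3 and Klf2 being those not printed. Sik1, outside the list, had no sequence either. Among the 9717 tested genes with a sequence the shares were 30.3% and 2.99%, and among all 27025 RefSeq genes 19.8% and 1.77%. The list was chosen with earlier results of these data known, and the difference between these shares was not tested. A match of letters is a description of the sequence and not a measured site.

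**Figure D2:**
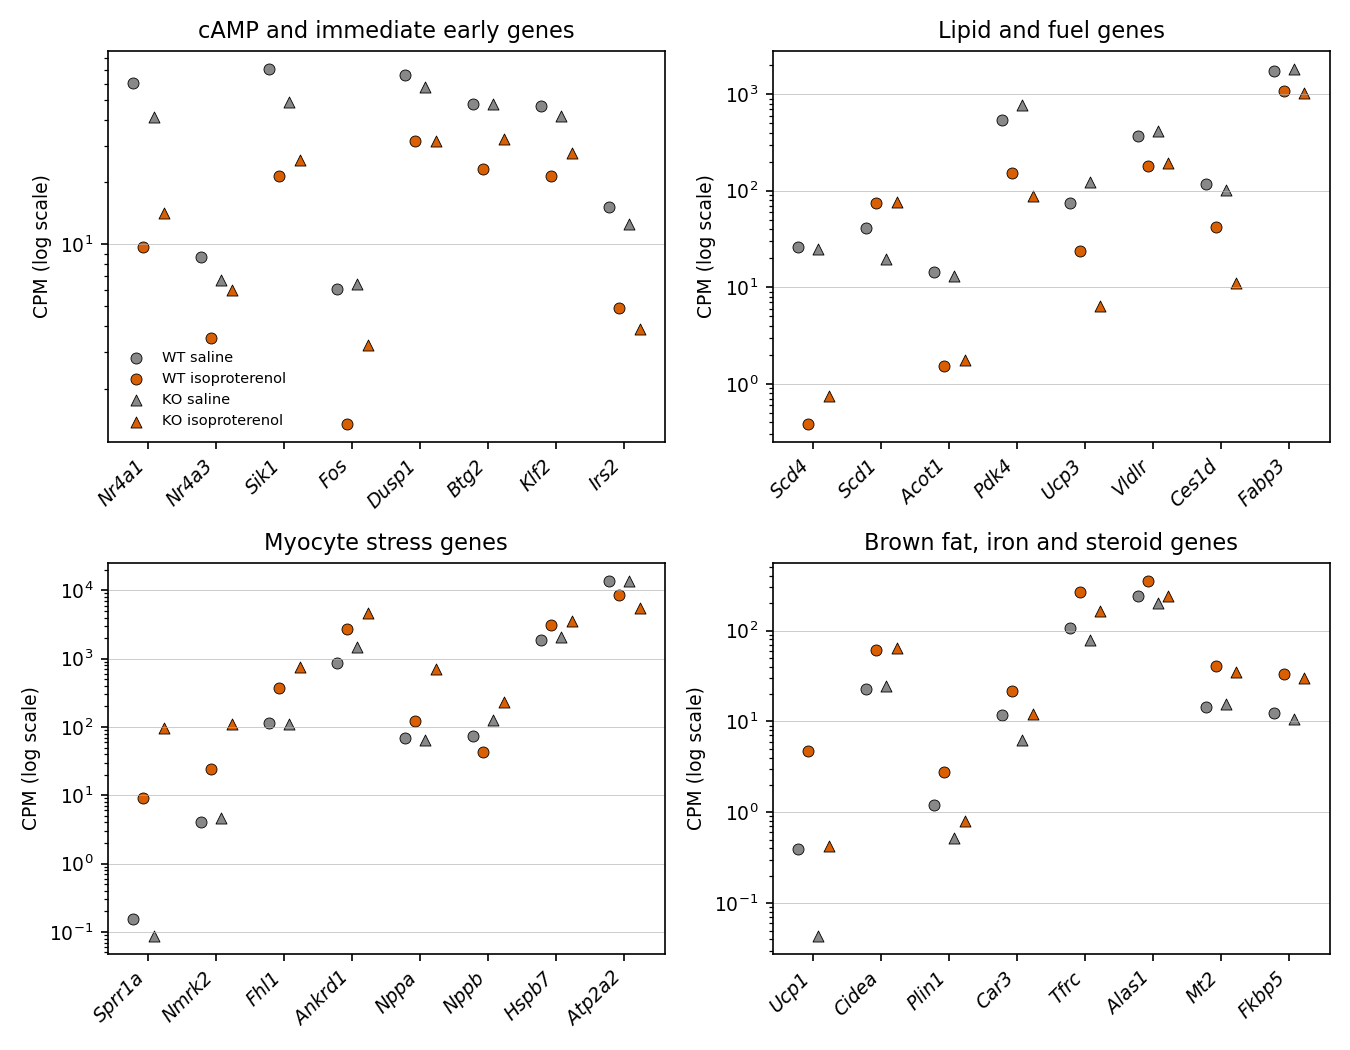
CPM on a log axis in each of the 4 libraries for 8 genes in each of 4 groups, with circles for WT, triangles for KO, grey for saline and orange for isoproterenol. In the first panel Nr4a1 and Sik1 are lower in both treated libraries, whereas Nr4a3 is near even in the KO pair, and in the fourth Cidea is higher in both treated libraries.

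Lipid fuel genes leaned lower. Of 22 tested target genes of PPAR, the nuclear receptors that respond to fatty acids, 6 were lower and 0 higher, with a median log2 ratio of -0.35. Acot1, which releases fatty acids from coenzyme A, stood at 14.4 CPM in WT saline and 1.54 CPM in WT isoproterenol, and at 13.1 and 1.76 CPM in KO. The ratio was 8.67-fold lower (6.12 to 13.0) in WT and 8.33-fold lower (5.88 to 12.5) in KO. Its near copy Acot2 stood at 58.5 and 37.2 CPM in the WT pair, and reads that fit both copies make the split between them uncertain. Pdk4, which restrains glucose oxidation, stood at 537 and 153 CPM in WT and at 765 and 87.2 CPM in KO. Ucp3, a mitochondrial carrier induced by fatty acids, stood at 74.9 and 23.6 CPM in WT (3.0-fold lower, 2.72 to 3.32) and at 123 and 6.39 CPM in KO. The lipoprotein receptor Vldlr was 1.94-fold lower (1.86 to 2.01). Ppara itself stood at 28 and 27.6 CPM, and Ppargc1a, a coactivator of mitochondrial genes, at 105 and 133 CPM.

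The oxidation enzymes shifted less, and nearly all in 1 direction. Of 25 genes of fatty acid oxidation and uptake 23 had a ratio below 1, with a median log2 ratio of -0.30. The genes counted as lower were Fabp3, the fatty acid carrier of the myocyte, at 1751 and 1068 CPM (1.55-fold lower, 1.53 to 1.58) and Ech1 at 1022 and 630 CPM. With scaling by total counts 4 were counted. Lpl, the lipase that frees fatty acids from lipoproteins, stood at 5316 and 3419 CPM, and its ratio of 1.47-fold lower (1.46 to 1.48) was just inside the limit, and past it with total counts. Ces1d, a carboxylesterase that hydrolyses triglyceride, was the lipase gene counted as lower, at 118 and 41.8 CPM in WT (2.67-fold, 2.47 to 2.88) and 103 and 11.2 CPM in KO. Several mitochondrial and lipid genes in no list were also lower. Slc25a34, a mitochondrial carrier, stood at 205 and 100 CPM, Ogdhl, a relative of the oxoglutarate dehydrogenase subunit, at 210 and 111 CPM, Acsf2, an acyl-CoA synthetase, at 53 and 29 CPM, and Thrsp, a thyroid hormone target of lipid synthesis, at 27.4 and 14.6 CPM.

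The stearoyl-CoA desaturases, which place a double bond in saturated fatty acids and lie side by side on chromosome 19, differed in opposite directions. Scd4 (GRCm38 chromosome 19, 44333092 to 44346743) stood at 26.1 CPM in WT saline and 0.386 CPM in WT isoproterenol, and at 24.8 and 0.746 CPM in KO. It was 60.1-fold lower (32.2 to 148) in WT and 36.4-fold lower (22.2 to 69.3) in KO, the lowest ratio of the 13041 genes in the WT pair. Scd1 (44394455 to 44407879) stood at 41.2 and 75.0 CPM in WT and at 19.8 and 76.6 CPM in KO, 1.92-fold higher (1.78 to 2.08) in WT. Scd2 stood at 33.6 and 37.4 CPM in the WT pair (1.18-fold higher, 1.07 to 1.3), and Scd3 was below 1 CPM in every library. Because these paralogs are similar in sequence, reads shared between them could be assigned to either.

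Carbohydrate and ketone genes leaned the other way. Of 24 genes of glycolysis and glycogen 17 had a ratio above 1 (median log2 ratio 0.22), and Gapdh, at 1988 and 2932 CPM, was the 1 gene counted (1.56-fold higher, 1.54 to 1.58). With scaling by total counts Gapdh was not counted. Bdh1, which oxidizes the ketone body beta-hydroxybutyrate, stood at 58.4 and 133 CPM in WT (2.41-fold higher, 2.27 to 2.57) and at 88.4 and 152 CPM in KO. Phka1, a subunit of the kinase that activates glycogen breakdown, was 1.98-fold higher (1.84 to 2.13) at 49.7 and 93.0 CPM, and Got1, an aminotransferase of the malate-aspartate shuttle, stood at 804 and 1197 CPM and was not counted with total counts. Fbp2, the muscle form of the gluconeogenic enzyme fructose bisphosphatase, was 1.9-fold lower (1.65 to 2.2) at 26.3 and 13.0 CPM. Of 24 nuclear genes of oxidative phosphorylation 0 were counted, beside 1.67% of all genes, and their median of 0.05 became -0.03 with scaling by total counts. Pmvk, an enzyme of the mevalonate pathway, stood at 8.93 and 30.4 CPM in WT and at 9.88 and 26.1 CPM in KO (3.59-fold higher, 3.08 to 4.2, in WT).

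Among genes known from fat, Ucp1 and Cidea were higher in the treated WT library. Ucp1 (ENSMUSG00000031710), the uncoupling protein of brown fat, stood at 0.39 CPM (10 reads) in WT saline and 4.73 CPM (98 reads) in WT isoproterenol, 12.3-fold higher (6.68 to 27.6). In the KO pair it stood at 0.0435 CPM (1 read) and 0.426 CPM (8 reads). Cidea, a protein of lipid droplets that heart and brown fat both express, stood at 22.5 and 60.3 CPM in WT and at 24.8 and 63.6 CPM in KO, 2.82-fold higher (2.56 to 3.12) and 2.26-fold higher (2.04 to 2.5). Of 9 adipocyte markers 7 were tested and 3 were higher in WT (Ucp1, Plin1 and Car3) and 0 lower, or 2 higher with scaling by total counts, where Plin1 was not counted. Their summed level was 29.0 CPM in WT saline, 46.2 CPM in WT isoproterenol, 14 CPM in KO saline and 21.7 CPM in KO isoproterenol. Adipoq, the adipocyte hormone adiponectin, stood at 1.52 and 3.09 CPM in WT (2.14-fold higher, 1.42 to 3.28), while Cfd was 1.48-fold lower, Fabp4, a fatty acid carrier of fat and endothelium, was even at 476 and 460 CPM, and Lep was at or below 0.312 CPM in every library. The part of fat tissue in the Ucp1 and Cidea values was not tested.

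The myocyte stress and fetal programme had 5 of 16 genes higher and 1 lower. Sprr1a, a small proline-rich protein induced in stressed myocytes, stood at 0.156 CPM (4 reads) in WT saline, 9.07 CPM (188 reads) in WT isoproterenol, 0.0871 CPM in KO saline and 97.9 CPM in KO isoproterenol. It had the highest ratio of the WT pair, 54.8-fold (23.6 to 228). Nmrk2, a nicotinamide riboside kinase of muscle, stood at 4.13 and 23.9 CPM in WT and 4.66 and 111 CPM in KO. Ankrd1, a stretch-responsive protein of the sarcomere, stood at 867 and 2678 CPM in WT and at 1461 and 4600 CPM in KO, and here the saline libraries differed too. Fhl1, a LIM protein of the stretch sensor, was 3.42-fold higher (3.28 to 3.57) at 114 and 367 CPM. The natriuretic peptides differed in opposite directions in WT. Nppa stood at 68.5 and 123 CPM (1.89-fold higher, 1.78 to 2.01) and Nppb at 73.3 and 42.9 CPM (1.61-fold lower, 1.49 to 1.75), whereas in KO both had the higher value in the treated library, Nppa at 65.3 and 700 CPM and Nppb at 127 and 232 CPM. Nppb in WT was not counted with TMM scaling and was counted as lower with total counts. Of the classical fetal genes, Acta1 stood at 398 and 481 CPM and Myh7 at 210 and 163 CPM in WT, neither past the limit.

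Among small heat shock proteins of muscle, those higher in WT were Hspb7 at 1865 and 3124 CPM (1.77-fold, 1.75 to 1.79) and Hspb6 at 691 and 1043 CPM (1.59-fold, 1.56 to 1.63), while Cryab was even at 1202 and 1133 CPM. Hspb6 stood at 831 and 879 CPM in KO and was not counted in WT with total counts. Other muscle genes in no list were Smpx, a small stretch-related protein, at 230 and 347 CPM (not counted with total counts), Pam, which amidates peptide hormones and is abundant in atria, at 753 and 1366 CPM, and Ndrg4, a gene of myocyte growth, at 413 and 752 CPM. All 3 were higher in both treated libraries than in both saline libraries. Ctf1, the cytokine cardiotrophin, stood at 5.38 and 2.27 CPM in WT and 5.09 and 2.4 CPM in KO (2.23-fold lower, 1.6 to 3.2, in WT).

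Most contractile genes were within the limit but leaned lower. Of 18 thick and thin filament genes 2 were lower and 0 higher. The 2 were Mylk4, a myosin kinase of muscle, at 205 and 79.3 CPM (2.44-fold lower, 2.31 to 2.58) and Myh7b, a minor myosin chain, at 110 and 63.6 CPM. Myom2, the adult M-band protein, stood at 1404 and 861 CPM (1.54-fold lower, 1.51 to 1.57). Of 21 genes of the Z-disc and intercalated disc 0 were counted, beside 1.67% of all genes. Among calcium genes Atp2a2, which pumps calcium back into the sarcoplasmic reticulum, was the 1 of 14 counted, at 13826 and 8441 CPM in WT (1.55-fold lower, 1.54 to 1.56) and at 13804 and 5494 CPM in KO. This was the largest decrease in absolute level in the WT pair. Its inhibitor Pln was even at 6060 and 6047 CPM, and Ryr2, the release channel, at 1347 and 1340 CPM.

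Among 23 ion channel genes 3 were lower and 1 higher. The sodium channel subunit Scn4b stood at 44.6 and 16.1 CPM in WT (2.62-fold lower, 2.32 to 2.97) and at 83.6 and 9.54 CPM in KO. The silent potassium channel subunit Kcnv2 was 3.15-fold lower (2.39 to 4.28) at 9.71 and 2.9 CPM, and Kcnip2, the partner of the transient outward potassium channel, 1.64-fold lower (1.56 to 1.71) at 218 and 126 CPM. Higher in the treated WT library was Cacna1h, a T-type calcium channel, at 18.6 and 31.6 CPM (1.79-fold, 1.59 to 2.02), with 17.5 and 20.6 CPM in KO. The pore subunit Cacna1c was 1.42-fold higher and so within the limit. Lower among receptor and signalling genes outside the lists were Chrna2, a nicotinic receptor subunit, at 3.43 and 0.869 CPM, and Gnb3, a G protein beta subunit, at 10.7 and 3.86 CPM, and both were lower in KO too.

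Genes of metal handling and of glucocorticoid response were higher in part. Tfrc, the transferrin receptor that brings iron into cells, stood at 106 and 267 CPM in WT and at 78.6 and 165 CPM in KO, 2.66-fold higher (2.54 to 2.78) and 1.85-fold higher (1.75 to 1.97). Alas1, the first enzyme of heme synthesis, stood at 240 and 353 CPM in WT (1.56-fold higher, 1.5 to 1.61) and at 199 and 241 CPM in KO, and was not counted in WT with total counts. The exporter Slc40a1 (ferroportin) stood at 24.1 and 13.8 CPM (1.65-fold lower, 1.43 to 1.91), and the near end of its interval fell short of the limit. Ferritin heavy chain Fth1 stood at 1099 and 893 CPM. Mt2, a metallothionein that binds zinc and copper, stood at 14.3 and 40.5 CPM in WT and 15.4 and 34.8 CPM in KO (2.99-fold higher, 2.64 to 3.39, in WT), and Mt1 at 68.8 and 110 CPM. Fkbp5, a chaperone induced through the glucocorticoid receptor, stood at 12.5 and 32.9 CPM in WT and at 10.6 and 30.3 CPM in KO, 2.78-fold higher (2.43 to 3.19) and 2.52-fold higher (2.16 to 2.94). Its relative Fkbp4 was lower at 367 and 213 CPM (1.63-fold, 1.57 to 1.69). Of the 15 listed genes of this group 5 were higher and 1 lower, and the median log2 ratio of 0.06 became -0.02 with total counts. Zbtb16 was higher in WT at 30.6 and 51.6 CPM but stood at 24.8 and 21.4 CPM in KO, Tsc22d3 stood at 88.0 and 97.2 CPM and Sgk1 at 58.0 and 38.6 CPM in WT. Cdkn1a, the cell cycle inhibitor p21, was 1.76-fold higher (1.55 to 2.01) at 15.7 and 26.3 CPM. With Phlda3 and Gadd45b it made 3 of 14 genes of the p53 list higher, and Btg2 was lower with either scaling. With total counts Cdkn1a and Phlda3 were not counted, which left 1 higher, Gadd45b.

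**Figure D3:**
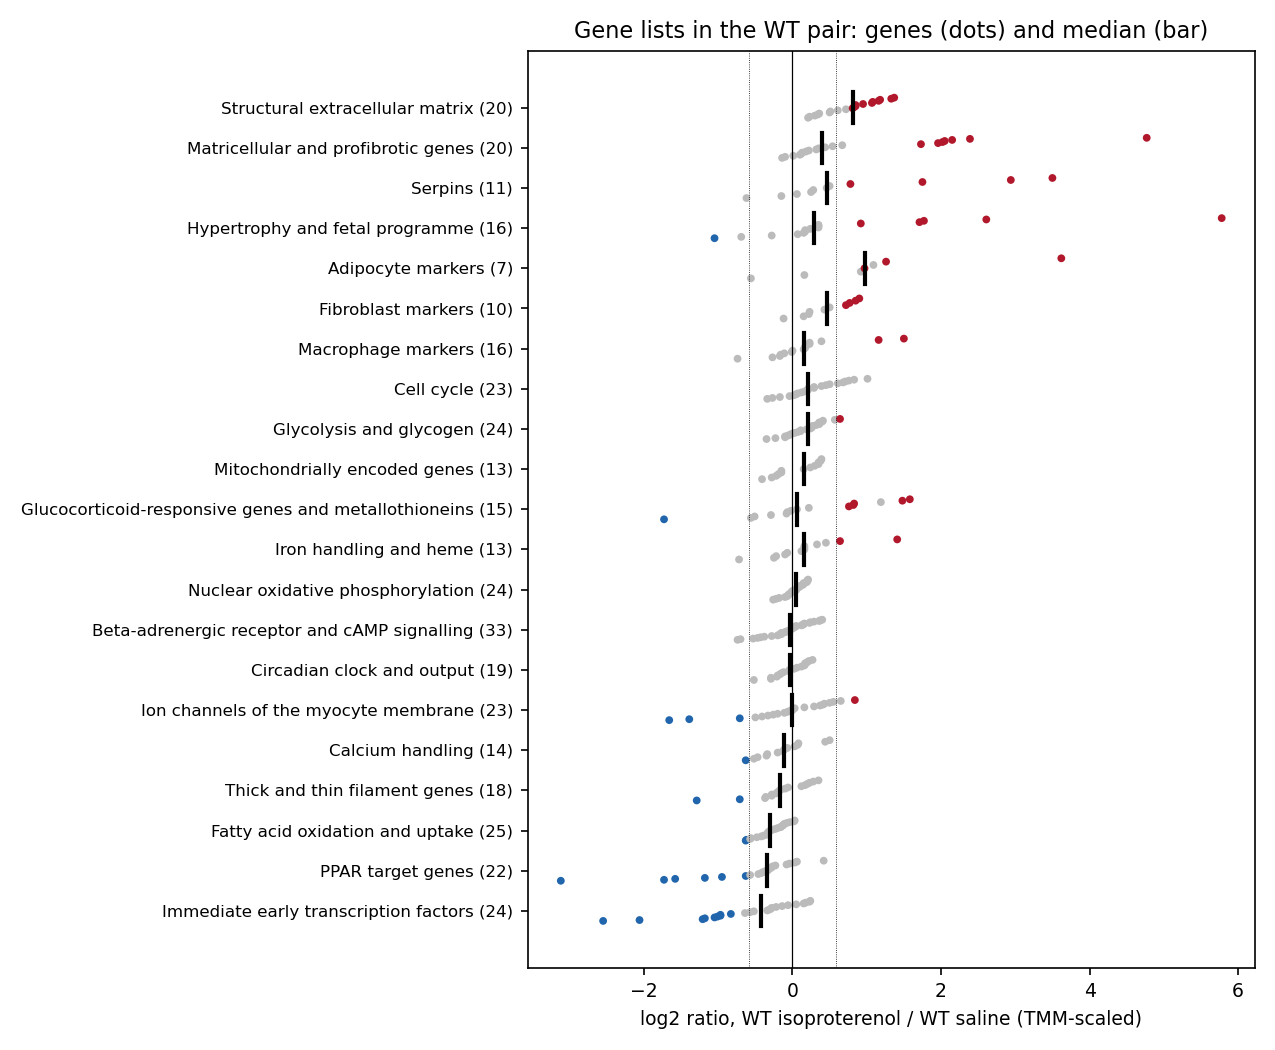
TMM-scaled log2 ratio of WT isoproterenol to WT saline for the tested genes of 21 lists, with the number tested after each name. Dots are genes (red higher, blue lower, grey not counted), black bars the medians and dotted lines 1.5-fold. The structural matrix list has the most genes counted as higher (11 of 20) and the immediate early list the most counted as lower (9 of 24), and the medians of the ion channel, glucocorticoid and nuclear oxidative phosphorylation lists are negative with total counts.

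Matrix genes were higher as in the KO pair, with smaller ratios, a difference that was not tested. Of 20 structural matrix genes 11 were higher in WT and 20 in KO, with median log2 ratios of 0.82 and 2.54. Col3a1 stood at 478 and 1172 CPM in WT and at 300 and 3815 CPM in KO. Cthrc1, a secreted protein of activated fibroblasts, stood at 0.273 CPM (7 reads) and 7.53 CPM in WT, 27.3-fold higher (13.8 to 73.7), and at 0.261 and 56.9 CPM in KO. Prg4, the joint lubricant lubricin, stood at 18.3 and 69.4 CPM in WT and 20.3 and 160 CPM in KO (4.01-fold, 3.61 to 4.46, in WT), Acan, the proteoglycan of cartilage, at 0.663 and 3.96 CPM in WT and 0.348 and 3.25 CPM in KO, and Cilp, a matrix protein that binds TGF-beta, at 36.1 and 96.7 CPM in WT and 30.5 and 527 CPM in KO. Acan thus had similar levels in both treated libraries, unlike Cilp. Acan was the 1 of 6 valve and cartilage markers that was counted, and their median log2 ratio was 0.03 (-0.05 with total counts). Other cartilage matrix genes were not counted, Comp at 10.5 and 10 CPM, Chad at 3.08 and 2.17 CPM and Cilp2 at 3.9 and 1.74 CPM (2.11-fold lower, 1.44 to 3.2). Of 10 fibroblast markers 4 were higher (Lum, Pi16, Col14a1 and Mfap4), or 2 with total counts. Of these 10 markers 9 had a ratio above 1, and their median log2 ratio was 0.47 (0.39 with total counts). Their summed level in CPM, without TMM scaling, was 2507 CPM in WT saline and 2513 CPM in WT isoproterenol, 2257 and 2993 CPM in KO, and none was at 0. Pdgfra and Tcf21, which define fibroblasts, stood at 47.4 and 49.7 CPM and at 7.18 and 9.17 CPM in WT. The part of fibroblast number in the matrix values was not tested. Among secreted regulators, Agt, the precursor of angiotensin, stood at 3.24 and 17.2 CPM in WT and at 2.92 and 14.2 CPM in KO (5.6-fold higher, 4.42 to 7.23, in WT). Apln, a peptide that lowers vascular tone, stood at 26.8 and 10.3 CPM in WT and at 20.3 and 7.19 CPM in KO (2.46-fold lower, 2.11 to 2.89, in WT).

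Among genes of immune cells some were higher and others lower, while the macrophage markers as a whole were near even. Of 16 macrophage markers 2 were higher, and their summed level was 522 CPM in WT saline and 508 CPM in WT isoproterenol, against 470 and 1096 CPM in KO. The 2 were Lgals3, galectin-3, at 4.1 and 11.0 CPM in WT (2.82-fold, 2.23 to 3.6) and Trem2, a lipid-sensing receptor, at 2.15 and 4.54 CPM (2.23-fold, 1.59 to 3.18). Gpnmb, a glycoprotein of lipid-laden macrophages, stood at 1.64 and 4.87 CPM in WT (3.12-fold higher, 2.17 to 4.62) and 1.96 and 17.4 CPM in KO. Spp1, Acp5 and Clec4d, also expressed by macrophages, were 3.33-fold, 3.4-fold and 4.45-fold higher in WT at 2.12, 1.54 and 1.21 CPM in the treated library. Retnla, a marker of resident and alternatively activated macrophages, was lower, at 5.27 and 1.25 CPM in WT (3.91-fold, 2.59 to 6.3) and at 3.57 and 0.373 CPM in KO. Mgl2, a lectin of macrophages and dendritic cells, was 1.87-fold lower (1.55 to 2.29), Alox5, the lipoxygenase of leukotriene synthesis, 2.2-fold lower (1.84 to 2.66), and Cd74, the MHC class II chaperone, 1.64-fold lower (1.57 to 1.73) at 198 and 114 CPM. These 4 genes were lower in both treated libraries than in both saline libraries. The markers Adgre1 and Csf1r stood at 22.1 and 18.6 CPM and at 70.8 and 55.5 CPM in WT, and no marker of the list was at 0. The part of macrophage number in these values was not tested. Of 18 chemokines and interleukins and of 24 interferon-induced genes 0 were counted, beside 1.67% of all genes. Ifi27l2b, which is in no list, was counted as higher (3.54-fold to 126-fold) and stood at 0.078 CPM (2 reads) in WT saline and 1.06 CPM (22 reads) in WT isoproterenol.

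A set of genes better known from neurons and endocrine cells was found among those in no list, chosen after their values were seen. Ptprn, a protein of dense-core vesicles, stood at 3.86 and 13.3 CPM in WT and at 5.92 and 19 CPM in KO (3.62-fold higher, 2.88 to 4.62, in WT). Tac1, the precursor of substance P, stood at 1.33 and 4.73 CPM in WT and at 1.87 and 5.49 CPM in KO. Astn2, a protein of migrating neurons, was 3.07-fold higher (2.22 to 4.34) in WT and 2.97-fold higher (2.09 to 4.34) in KO, at 2.07 and 6.03 CPM in WT. For these 3 genes both treated libraries lay above both saline libraries. Slc17a7, a vesicular glutamate transporter, stood at 15.4 and 28 CPM in WT and at 26.7 and 31.1 CPM in KO, so that its WT saline library was the lowest of the 4. Ramp1, the partner of the receptor for the neuropeptide CGRP, stood at 9.01 and 16.5 CPM in WT and at 8.1 and 9.06 CPM in KO, and Opn4, melanopsin, at 1.87 and 4.15 CPM in WT and 2.05 and 3.41 CPM in KO. Mapt, the microtubule protein tau, was lower at 108 and 58.7 CPM in WT (1.75-fold, 1.63 to 1.87) and 112 and 53.3 CPM in KO. Of 10 markers of Schwann cells and neurons 5 were tested and 0 counted, with summed levels of 15.3 and 14.6 CPM in the WT pair and Chat at 0 in the treated library.

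Of the 10 largest gains in CPM in the WT pair 7 were mitochondrial genes. The 5 largest gains were mt-Co1 (95581 to 115213 CPM), mt-Cytb, mt-Nd2, mt-Nd4 and mt-Nd5, each 1.18-fold to 1.31-fold higher. The mitochondrial ribosomal RNAs went the other way, mt-Rnr1 at 2135 and 1185 CPM in WT (1.7-fold lower, 1.68 to 1.73) and mt-Rnr2 at 5199 and 3314 CPM (1.48-fold lower, 1.47 to 1.5), which was counted with total counts. Both were lower in KO too, at 1780 and 1007 CPM and at 4988 and 2886 CPM. Of 13 mitochondrial protein genes 7 had a ratio above 1 in WT, all at over 1000 CPM, and 6 a ratio below 1, all under 100 CPM. The summed level of the 13 was higher in the treated library in WT (241106 and 284364 CPM) but lower in KO (256266 and 221069 CPM). In KO 0 of them were counted as higher and 5 as lower. Copies of mitochondrial sequence in the nuclear genome can share reads with these genes, so the low 6 are uncertain.

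Lists with no gene counted included the circadian clock (19 tested, median log2 ratio -0.04), cytosolic ribosomal proteins (25, -0.01), antioxidant genes (22, -0.03), the unfolded protein response (19, -0.17, with 1 gene lower by total counts), branched-chain amino acid catabolism (17, -0.04), the Wnt system (15, 0.36), cell cycle genes (23, 0.21), endothelial markers (12, -0.06) and smooth muscle and pericyte markers (12, 0.10). Over all 13041 genes 1.67% were counted, so 0 in lists of this size says little about their members. In the Wnt list Fzd2, a receptor, at 5.93 and 8.88 CPM and Wisp1, a target gene, at 2.38 and 4.2 CPM had intervals that began at 1.27-fold and 1.33-fold. Among cell cycle genes Mki67 stood at 8.93 and 9.8 CPM in WT, against 4.27 and 19.2 CPM in KO.

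The KO pair, which shares no library with the WT pair, had 942 genes higher (7.22%) and 565 lower (4.33%). Of the 119 genes higher in WT, 91 (76.5%) were counted as higher in KO, 28 were not counted and 0 were counted as lower. The genes whose KO ratio lay below 1 were Ramp1, Hspb6 and Zbtb16. Of the 99 genes lower in WT, 71 (71.7%) were counted as lower in KO and 27 were not counted. The 1 gene counted in the other direction was Cyp26b1, which degrades retinoic acid. It stood at 19.6 CPM in WT saline, 2.03 CPM in WT isoproterenol, 5.62 CPM in KO saline and 16.1 CPM in KO isoproterenol, 9.04-fold lower (6.66 to 12.8) in WT and 2.53-fold higher (2.06 to 3.14) in KO. The saline libraries of the 2 genotypes thus differed in this gene as well. Nes, an intermediate filament protein of vessels and progenitors, stood at 74.5 and 39.4 CPM in WT and at 59.1 and 83.3 CPM in KO, and Mybpc2, a myosin-binding protein, at 20.7 and 9.41 CPM in WT and 30.6 and 37.3 CPM in KO, and neither was counted in KO.

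**Figure D4:**
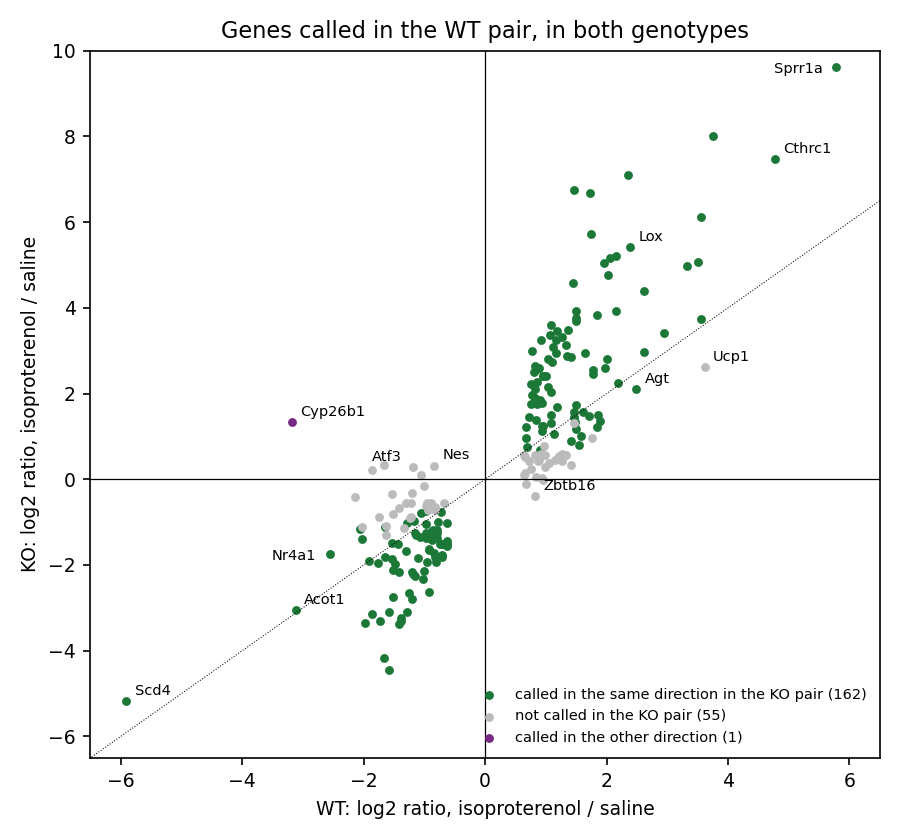
TMM-scaled log2 ratio of isoproterenol to saline in WT (horizontal) and KO (vertical) for the 218 genes counted in the WT pair, with a dotted line where both are equal. Green dots were counted in the same direction in KO (162), grey dots were not counted there (55), and the purple dot is Cyp26b1, counted in the other direction.

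A treatment effect shared by both genotypes was tested in an additive fit of genotype and treatment with 1 residual degree of freedom. On log2(CPM + 1) limma called 376 genes (2.88%) at an adjusted p under 0.05, 247 higher (1.89%) and 129 lower (0.989%). On TMM-scaled CPM limma called 2 genes, Scd4 and Acot1, with 1872 genes at an unadjusted p under 0.05. Quasi-likelihood edgeR on the recovered reads called 10, among them Prg4, Serpina3n, Fkbp5, Agt, Sprr1a and Cthrc1 as higher and Nr4a1, Scd4 and Acot1 as lower. Scd4 had an adjusted p of 1.1e-08 with limma on log2(CPM + 1), 0.0031 with edgeR and 0.0078 with limma on TMM-scaled CPM, and was lower in 2 of 2 treated libraries. Cyp26b1, with opposite ratios in the genotypes, had an adjusted p of 0.71 with limma.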

How the data were processed

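Messenger RNA of ventricles was sequenced from 4 groups with 1 library each, from TruSeq Stranded mRNA kits per the labels' protocols. The authors deposited CPM for 46603 genes, made with HTSeq on GRCm38.p4 (mm10), per the submitters' processing notes. For the aligner and the strand setting, nothing was given in the sources used here. The genotype-only columns were taken as saline. Every CPM was a whole number of reads within 0.01 reads. From these reads, ratios were scaled by TMM (edgeR 4.0.16), with 0.5 reads added and exact conditional (Clopper-Pearson) 95% intervals (scipy 1.17.1) that cover counting error only. The additive fit used limma 3.58.1 with Benjamini-Hochberg adjustment, and edgeR and DESeq2 1.42.0 were alternatives. The steps were tested on simulated data. The members and the 65 gene lists were chosen with earlier results of these data known. Of the 952 tested list members 9.87% were counted in WT, against 1.03% of the 12089 tested genes in no list. Counts and medians of lists are thus a description and not a test. Genes were named by rule: the 25 called genes per direction farthest from no change, the 20 farthest per direction in no list, the 10 largest CPM differences per direction, list members, genes called in opposite directions in the genotypes, those nearest 1 CPM and P2ry6. Any other gene named was chosen after its values were seen.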

Additional observations from a re-analysis of the deposited data

Results flagged for a closer look

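Cyp26b1, which degrades retinoic acid, differed in opposite directions in the genotypes, with a log2 ratio of isoproterenol to saline of -3.18 in WT and 1.34 in KO. It was lower in the 1 treated WT library and higher in the 1 treated KO library than in the saline library of the same genotype, and the difference was not tested. The retinoid enzyme Lrat was lower in both treated libraries, at 3.9 and 1.16 CPM in WT and 1.87 and 0.586 CPM in KO.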

How the results depend on the processing

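The counts of 119 genes higher and 99 lower became 47 and 31 when the interval had to lie beyond 2-fold, and 182 and 270 when log2(CPM + 1) ratios past 1.5-fold were counted with no interval. Other scalings and filters kept both counts within 1.5 times. Against both saline libraries 105 and 80 remained. Total counts, which shift every log2 ratio by -0.08, gave 96 and 126, with 96 of the 119 higher and all 99 lower genes kept. They turned the list medians of growth factors (0.02 to -0.06), complement (0.03 to -0.05), interferon (0.05 to -0.03) and pyruvate and ketone genes (0.06 to -0.02) negative. Of 948 values of 237 named genes under other scalings, 921 kept their side of the limit, 24 lost it, 3 gained it and 0 reversed. The limma count of 376 was 965 without the filter and 2 on TMM-scaled CPM, and edgeR called 10 and DESeq2 178, and the cause was not tested. With 1 library per group, the spread between hearts is unknown.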

Other observations

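Most genes that differed were protein coding, as were most genes tested (94.8% of 13041). Of the 119 higher genes 114 were protein coding, and of the 99 lower genes 91. Among all 13041 genes 396 were long intergenic noncoding, antisense or processed transcripts. Of the higher genes 3 were antisense, 1 was a long intergenic noncoding RNA and 1 a processed transcript. Of the lower genes 2 were long intergenic noncoding RNAs and 1 was antisense. Gm15543, an antisense gene on GRCm38 chromosome 6 (145182275 to 145187630), stood at 37.5 and 94.5 CPM in WT and 40.4 and 57.9 CPM in KO, 2.67-fold higher (2.47 to 2.88) in WT. Casc1, on the opposite strand, stood at 7.37 and 7.05 CPM in WT. Dnm3os, which hosts microRNAs within Dnm3, stood at 1.99 and 5.07 CPM in WT and 2.13 and 17.7 CPM in KO, with Dnm3 at 4.37 and 4.34 CPM in WT. Reads of these overlapping genes may be mixed, since the strand setting of the counting is not given in the sources used here.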
